A study of Homo sapiens with 12 samples.

Results

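The non-specific lethal (NSL) complex is one of the assemblies in which the histone acetyltransferase MOF, encoded by KAT8, works. The 8 genes described here, KANSL1, KANSL2, KANSL3, PHF20, MCRS1, HCFC1, OGT and WDR5, encode MOF's partners in it. They were taken by name, and the platform annotation gives each of them 1 probe set. They are 8 of 14884 genes measured. RNA was taken from cultures of Ishikawa, an established line of human endometrial adenocarcinoma, in 4 labelled groups of 3 arrays: control ERα(-), shMOF ERα(-), control ERα(+) and shMOF ERα(+). The label shMOF stands for a short hairpin RNA directed at MOF, and ERα for oestrogen receptor alpha, the product of ESR1. The sources used here do not say what separates ERα(-) from ERα(+), what the control cells carried, which hairpin was used or how the replicates arose. The p-values therefore measure array-to-array spread that may be technical. In bulk RNA, fewer cells of a type and less RNA per cell cannot be told apart. The series concerns feedback between MOF and ERα, and the question put to the members is whether MOF's partners follow either label.

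MOF acetylates the tail of histone H4 and is found in a pair of complexes, MSL and NSL. The NSL complex sits mainly at promoters of broadly expressed genes. Several of its subunits have other work outside it. OGT adds N-acetylglucosamine to serine and threonine residues of many proteins and also cleaves HCFC1, a coregulator that joins DNA-binding factors to chromatin enzymes. WDR5 is shared with the complexes that methylate histone H3 at promoters. KANSL1 is the scaffold that holds MOF and WDR5 together, KANSL2 also contacts WDR5, PHF20 reads methylated lysines, and MCRS1 has further roles at the mitotic spindle.

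The label checks bear on every direction below. KAT8 (chromosome 16, 31117664 to 31131393, GRCh38.p14) gave a log2 difference of shMOF from control of -0.02 in ERα(-) (95% interval -0.29 to 0.26) and 0.04 in ERα(+) (-0.23 to 0.31). ESR1 differed between the ERα labels by 0.18 in control arrays (-0.08 to 0.45) and -0.15 in shMOF arrays (-0.41 to 0.12). It was dim, with group means from 4.27 to 4.46. Among shMOF arrays its ERα(+) values all lay below its ERα(-) values, opposite to the label. The groups of 9.51% of genes did not overlap there. The interval of each of these differences included 0, so shMOF, control, ERα(-) and ERα(+) name the labels of the arrays throughout. Array medians ran from 4.53 to 4.59 (log2). The first principal component over all genes held 36.8% of the variance, with control ERα(+) replicate 3 at its upper end (score 32.94) and shMOF ERα(+) replicate 2 at its lower end (-29.81). Of the epithelial markers, 5 of 7 were measured and 0 of the 5 lay below the median level of tested genes, while all 8 measured markers of fibroblasts and stroma (3 of 7), immune cells (2 of 5) and endothelium (3 of 4) did. Of these markers, CD14 was at -0.25 for shMOF averaged over both conditions and PECAM1 at 0.49 for shMOF in ERα(-), both dim. The other measured immune marker, LYZ, was at 0.01 in the comparison given for CD14. The other endothelial ones, VWF and KDR, were at -0.08 and 0.08 in that given for PECAM1. For shMOF in ERα(+) PECAM1 was at -0.01. Without control ERα(+) replicate 3 CD14 was at -0.14.

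All 8 members were measured well above the dim range. Their means over the 12 arrays ran from 6.38 for PHF20 to 9.80 for HCFC1 on the log2 scale, against a median of 5.66 for tested genes. Probe sets differ in how brightly they report, so these values do not rank the genes. Limma called 0 of the 8 in any of 7 comparisons or among the 4 groups as a whole, and 0 of 14884 genes in the same tests (0% called at an adjusted p below 0.05). The lowest adjusted p of a member was 0.223, for OGT between shMOF and control in ERα(+), by limma with Benjamini-Hochberg adjustment. At an unadjusted p below 0.05 the share of all genes was 4.78% between shMOF and control in ERα(-), where 1 of 8 members was below it, and 18.7% in ERα(+), where 3 were. Between the ERα labels it was 12.7% among control arrays, with 2 members, and 5.33% among shMOF arrays, with 1 member. The interaction subtracts the ERα(-) shMOF difference from the ERα(+) one, and 18% of genes and 4 members were below the line there. Averaged over both conditions, the shMOF label gave 4.62% of genes and the ERα label 3.41%, each with 0 members. The members below the line were MCRS1, HCFC1, OGT and PHF20. In the comparison of all 4 groups at once, 0 of 8 were below it, against 8.94% of genes. Groups did not overlap for 0 members between shMOF and control in ERα(-), against 8.76% of genes.

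The sequence before the start site is given for 3 members whose upstream window overlaps no other gene: OGT and PHF20, which parted between groups, and KANSL3, which did not. Each is the 250 bases upstream of a RefSeq start site on GRCh38.p14, in the direction of the gene, with capitals marking any match to 1 of 6 motifs searched on both strands.
OGT chrX:71532854-71533103, plus strand: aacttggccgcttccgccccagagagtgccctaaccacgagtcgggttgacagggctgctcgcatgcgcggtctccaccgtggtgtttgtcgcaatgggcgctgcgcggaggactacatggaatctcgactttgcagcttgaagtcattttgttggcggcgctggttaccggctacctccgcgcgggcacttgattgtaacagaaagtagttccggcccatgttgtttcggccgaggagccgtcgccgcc
PHF20 chr20:35771765-35772014, plus strand: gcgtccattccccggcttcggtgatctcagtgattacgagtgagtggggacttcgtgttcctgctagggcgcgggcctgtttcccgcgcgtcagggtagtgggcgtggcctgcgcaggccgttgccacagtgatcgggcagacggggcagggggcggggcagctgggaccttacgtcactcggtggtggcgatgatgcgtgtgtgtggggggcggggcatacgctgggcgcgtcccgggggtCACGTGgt
KANSL3 chr2:96638313-96638562, minus strand: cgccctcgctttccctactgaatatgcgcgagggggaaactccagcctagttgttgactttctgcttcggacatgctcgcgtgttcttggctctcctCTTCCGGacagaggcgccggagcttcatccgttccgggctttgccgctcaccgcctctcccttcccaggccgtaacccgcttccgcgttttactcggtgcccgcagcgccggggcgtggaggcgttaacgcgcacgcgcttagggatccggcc

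Windows were found for 7 of the 8 members, 13 windows in all, some genes having several start sites. The palindromic oestrogen response element was in 0 of them, and 0.0399% of 35116 windows of all genes held it. The E-box CACGTG, which MYC and related factors can bind, was in 4 of the 13 windows, 1 each of PHF20, MCRS1, KANSL1 and WDR5, and in 6.34% of all windows. The ETS motif CCGGAAG was in 2 of the 13, of KANSL3 and WDR5, and in 8.52% of all. The NRF1 motif (1.03% of windows), YY1 (AAGATGGCG, 0.652%) and the letters ACTACAA, searched for THAP11/ZNF143 (2.47%), were in 0. Each search took a single form of its motif, and other forms that the factors may bind were not counted. None of the 6 motifs, in the form searched, was in the OGT window printed above. A match is only a run of letters, and the lack of one says nothing of the factor.

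**Figure D1:**
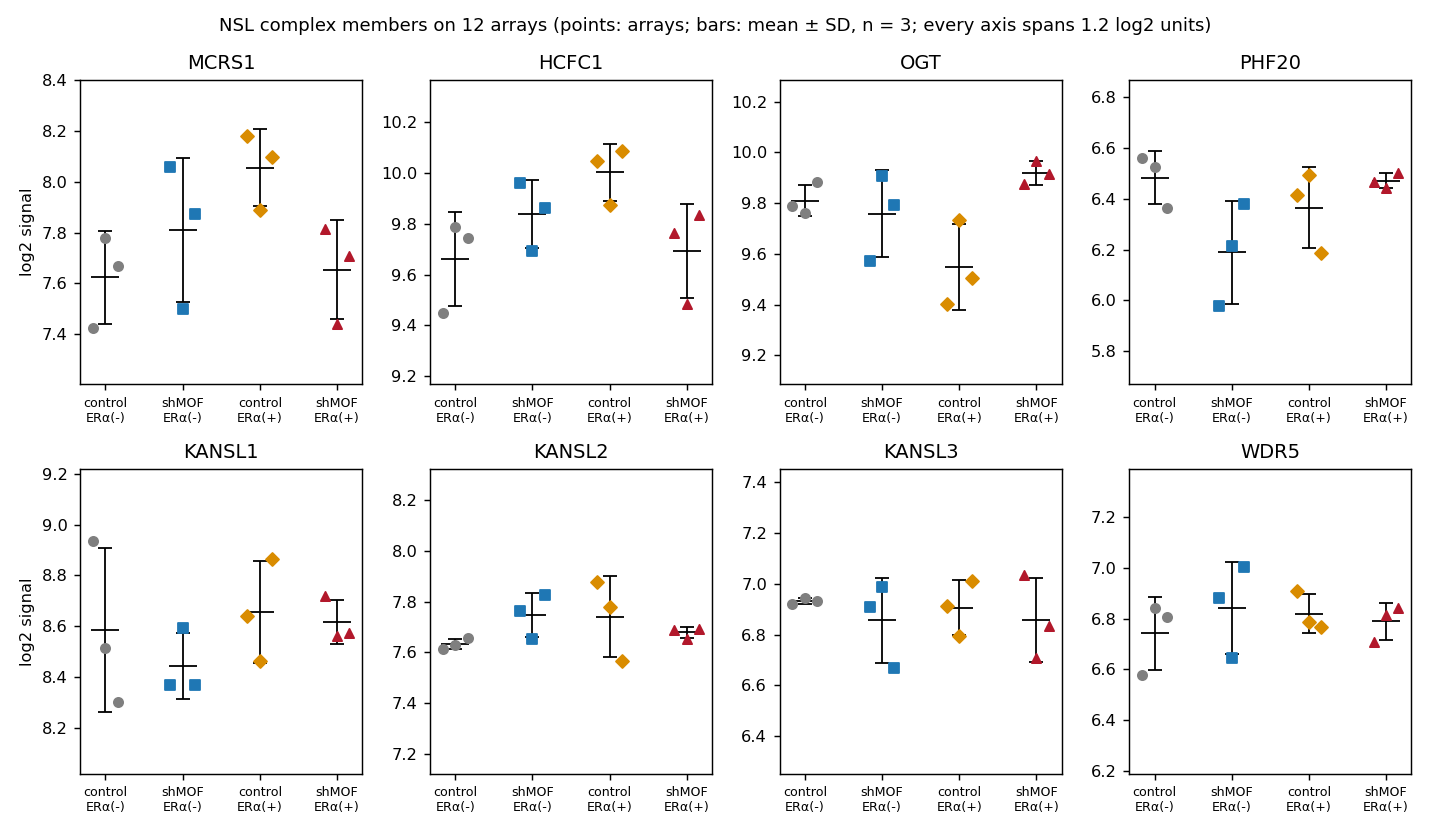
Log2 signal (vertical axes, each spanning the same width) of the 8 NSL members in the 4 labelled groups (horizontal axes), with a point for each array and bars for the mean and SD of 3 arrays. MCRS1 and HCFC1 are highest, and OGT is lowest, in control ERα(+), where the 3 arrays of each do not overlap those of shMOF ERα(+).

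MCRS1, HCFC1 and OGT were the members whose groups parted in ERα(+). MCRS1 (chromosome 12, 49558299 to 49568142, GRCh38.p14), a forkhead-associated domain protein of the complex, read 8.18, 7.89 and 8.10 on the control ERα(+) arrays and 7.82, 7.44 and 7.71 on the shMOF ERα(+) arrays, replicates 1 to 3. All 3 control arrays were above all 3 shMOF arrays. The difference of shMOF from control was -0.40 ± 0.16 (SE), or 0.757-fold (95% interval 0.595 to 0.964), with a limma adjusted p of 0.237, and 0.0301 with array quality weights. In ERα(-) the same gene read 7.42, 7.78 and 7.67 on control arrays and 8.06, 7.50 and 7.87 on shMOF arrays. There the groups overlapped and the difference was 0.19 ± 0.16, and it ran from 0.06 without shMOF ERα(-) replicate 1 to 0.34 without replicate 2 of that group. The interaction was -0.59 ± 0.23 (limma adjusted p = 0.233, and 0.0141 with the weights). With these weights 1629 of 14884 genes were called for shMOF in ERα(+) and 3258 of 14884 for the interaction. Passing with them is therefore not particular to MCRS1, nor to HCFC1 or OGT below.

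HCFC1 (chromosome X, 153947557 to 153971818) read 10.05, 9.87 and 10.09 on control ERα(+) arrays and 9.76, 9.48 and 9.83 on shMOF ERα(+) arrays. The groups again did not overlap, with the lowest control array only just above the highest shMOF array. The difference was -0.31 ± 0.14 (SE), or 0.808-fold (95% interval 0.658 to 0.991; limma adjusted p = 0.256). Without shMOF ERα(+) replicate 2 it was -0.20. In ERα(-) it read 9.45, 9.79 and 9.75 on control arrays and 9.96, 9.69 and 9.86 on shMOF arrays, which overlapped at a difference of 0.18 ± 0.14, or 0.07 without control ERα(-) replicate 1. The interaction was -0.49 ± 0.19 (limma adjusted p = 0.238, and 0.0423 with array quality weights).

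OGT (chromosome X, 71533104 to 71575892) lay on the other side from its substrate HCFC1. It read 9.40, 9.74 and 9.51 on control ERα(+) arrays and 9.88, 9.97 and 9.92 on shMOF ERα(+) arrays, with no overlap. The difference was 0.37 ± 0.12 (SE), or 1.29-fold (95% interval 1.08 to 1.56; limma adjusted p = 0.223, and 0.0224 with array quality weights). In ERα(-) the values were 9.79, 9.76 and 9.88 on control arrays and 9.57, 9.91 and 9.79 on shMOF arrays, and the difference was -0.05 ± 0.12. The interaction was 0.42 ± 0.18 (limma adjusted p = 0.249, and 0.0190 with the weights). The 3 non-overlapping members in ERα(+) are to be read against a share of 26.2% of all genes whose groups did not overlap there.

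The same 3 genes parted between the ERα labels among control arrays. These values use the control ERα(+) arrays a second time, so they are not separate evidence. MCRS1 was at 0.43 ± 0.16 (SE) in ERα(+) relative to ERα(-), HCFC1 at 0.34 ± 0.14 and OGT at -0.26 ± 0.12. The limma adjusted p-values were 0.343, 0.357 and 0.398. None of the 3 had overlapping groups, against 19.3% of genes with groups that did not overlap. Among shMOF arrays their groups overlapped, with differences of -0.16 ± 0.16, -0.15 ± 0.14 and 0.16 ± 0.12. Leaving out 1 array took these as near to 0 as -0.03, -0.04 and 0.07. In order of group means, MCRS1 ran from control ERα(-) at 7.62 ± 0.18 (SD, n = 3) through shMOF ERα(+) at 7.65 ± 0.20 and shMOF ERα(-) at 7.81 ± 0.29 to control ERα(+) at 8.06 ± 0.15. HCFC1 had the same order, at 9.66 ± 0.18, 9.69 ± 0.18, 9.84 ± 0.13 and 10.002 ± 0.114. OGT ran from control ERα(+) at 9.55 ± 0.17 through shMOF ERα(-) at 9.76 ± 0.17 and control ERα(-) at 9.81 ± 0.06 to shMOF ERα(+) at 9.92 ± 0.05. Every pair of neighbouring groups in these orders overlapped in its arrays.

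**Figure D2:**
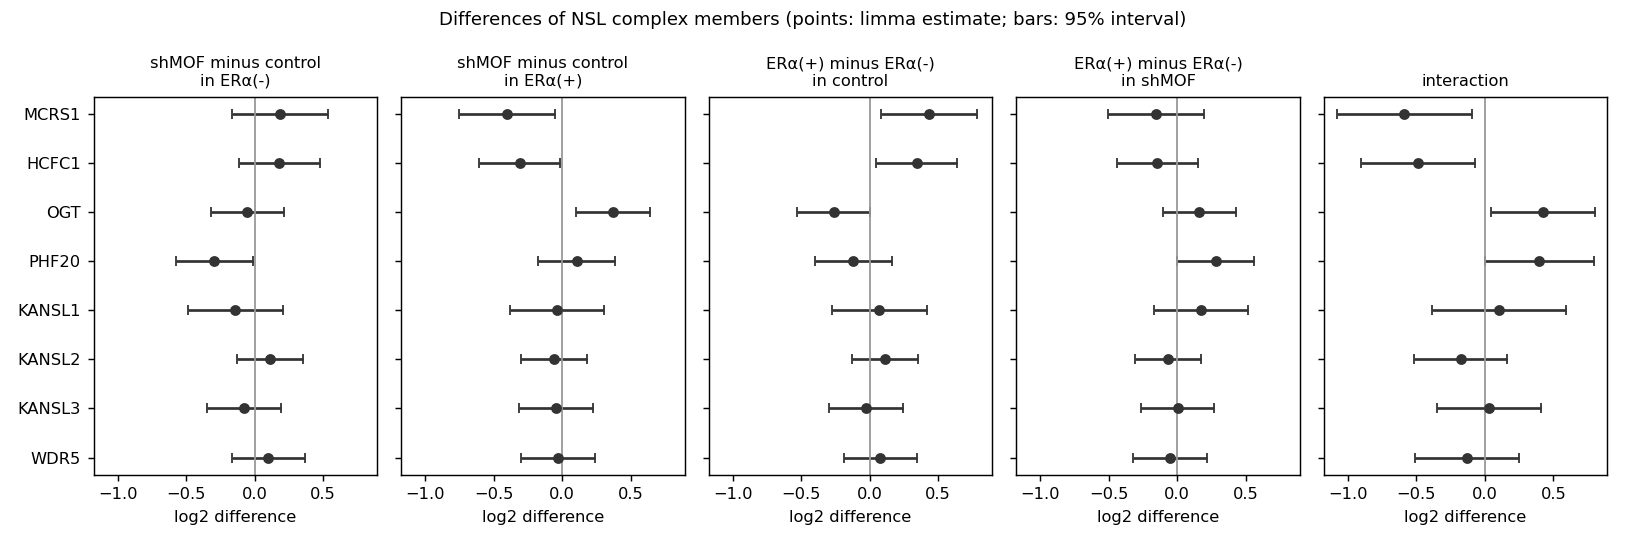
Log2 differences (horizontal axes) of the 8 members (rows) in 4 comparisons of 2 groups and in the interaction, the ERα(+) shMOF difference less the ERα(-) one, with points for the limma estimate and bars for its 95% interval. MCRS1 and HCFC1 lie on the opposite side of 0 from OGT in each panel, and 0 differences passed an adjusted p of 0.05.

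Across all 12 arrays MCRS1 and HCFC1 followed one another closely. Their Pearson r was 0.949 and their Spearman rho 0.965 (permutation p = 2e-05 for each, near the smallest that 100000 permutations can give, and 0.00056 for each after Benjamini-Hochberg over the 28 pairs of members). The 2 arrays farthest from the median of MCRS1 did not carry the relation, since r was 0.932 without them. After the mean of each group was taken out, r was 0.90. Of the other 14883 genes, 0.155% had an r with MCRS1 as high as that of HCFC1 or higher. MCRS1 and OGT were opposed, at r = -0.85 and rho = -0.80 (permutation p = 0.00044 and 0.00266; 0.00616 and 0.0372 adjusted), at -0.91 without the 2 farthest arrays and -0.75 within groups. As low an r or lower was had with MCRS1 by 2.71% of genes, and with OGT by 1.22%. HCFC1 and OGT were at r = -0.75 and rho = -0.75 (permutation p = 0.00517 and 0.00623; 0.0483 and 0.0581 adjusted), at -0.92 without the 2 farthest arrays and -0.54 within groups. With HCFC1, 6.3% of genes had as low an r or lower. Among the 28 pairs, 11 had r above 0, the median was -0.16, and 3 passed after adjustment of r, all 3 between these genes. By rho only the pairs MCRS1 with HCFC1 and MCRS1 with OGT passed. The permutations shuffled all 12 arrays freely. These p-values therefore allow neither for the 4 groups nor for variation that many genes share across the arrays. The shares of genes given above show how common such values of r were.

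**Figure D3:**
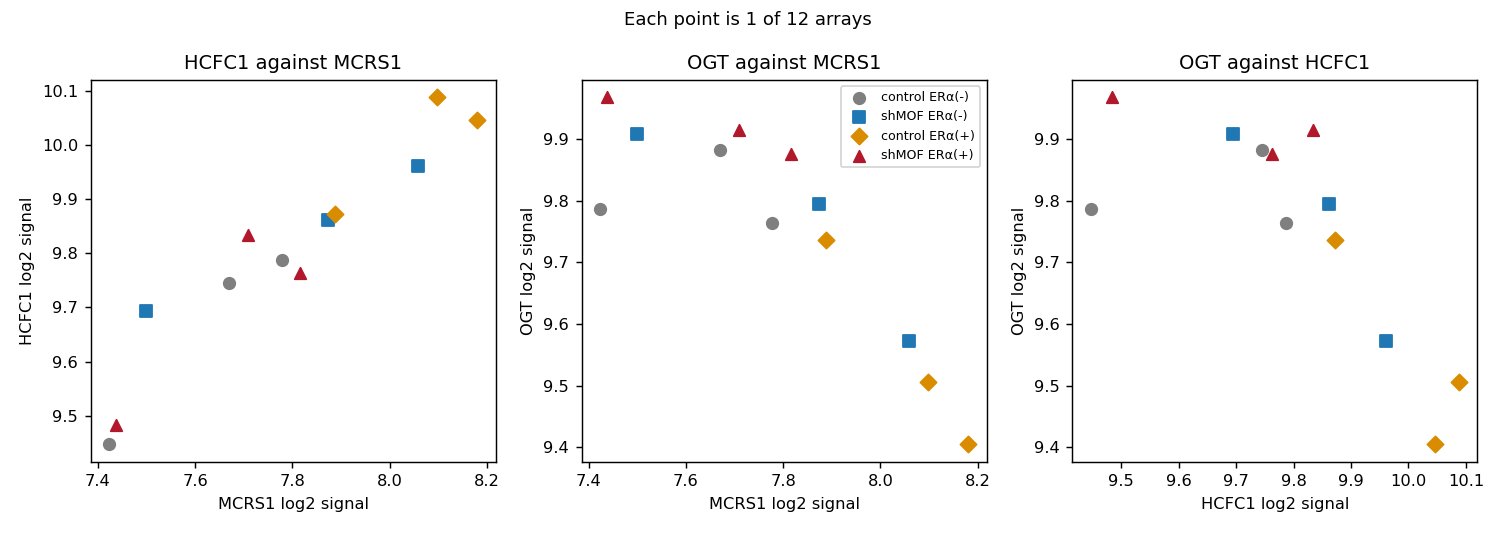
Log2 signals of MCRS1, HCFC1 and OGT against one another, with a point for each of the 12 arrays and a colour and shape for each labelled group. MCRS1 and HCFC1 rise along a line (r = 0.949), while OGT goes down as either goes up (r = -0.85 and -0.75), and arrays of 1 group are spread along the lines.

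These 3 genes also followed the first principal component, the axis on which the arrays differ most over all genes. The correlations with its score were 0.86 for MCRS1, 0.81 for HCFC1 and -0.86 for OGT, over 12 arrays that share this axis by construction, and they are given as a description. The sizes stood at the 87.2th, 81.6th and 87.4th percentiles of all genes. PHF20 was at -0.49 and the other 4 members between 0.13 and 0.32. All 3 control ERα(+) arrays scored above 0 and all 3 shMOF ERα(+) arrays below 0. With both arrays at the ends of the component left out, the shMOF difference in ERα(+) was -0.27 for MCRS1, -0.16 for HCFC1 and 0.33 for OGT. With the component as a covariate these were -0.05, -0.08 and 0.17, and 0 of 8 members kept an unadjusted p below 0.05 in any comparison. The covariate takes out part of the comparison itself. The summed linear signal of the 5 measured epithelial markers lay between 6115 and 6435 in control ERα(+) and between 5529 and 6075 in shMOF ERα(+), which did not overlap. Limma called 0 of the 5, and 1 of the 5 was below an unadjusted p of 0.05, the keratin KRT18 at -0.43 ± 0.15 (SE). KRT19 was at -0.38, KRT8 at -0.34, EPCAM at -0.07 and PAX8 at 0.03. Summed signals of the fibroblast and stromal markers, 3 of 7 measured and all dim, were 38.07 to 40.94 and 35.27 to 38.02 in the same groups. These only just parted, and the genes did not move together: THY1 was at -0.15, DCN at -0.008 and LUM at 0.10. Summed signals of the immune and endothelial markers overlapped. The part of these markers in the result was not tested.

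**Figure D4:**
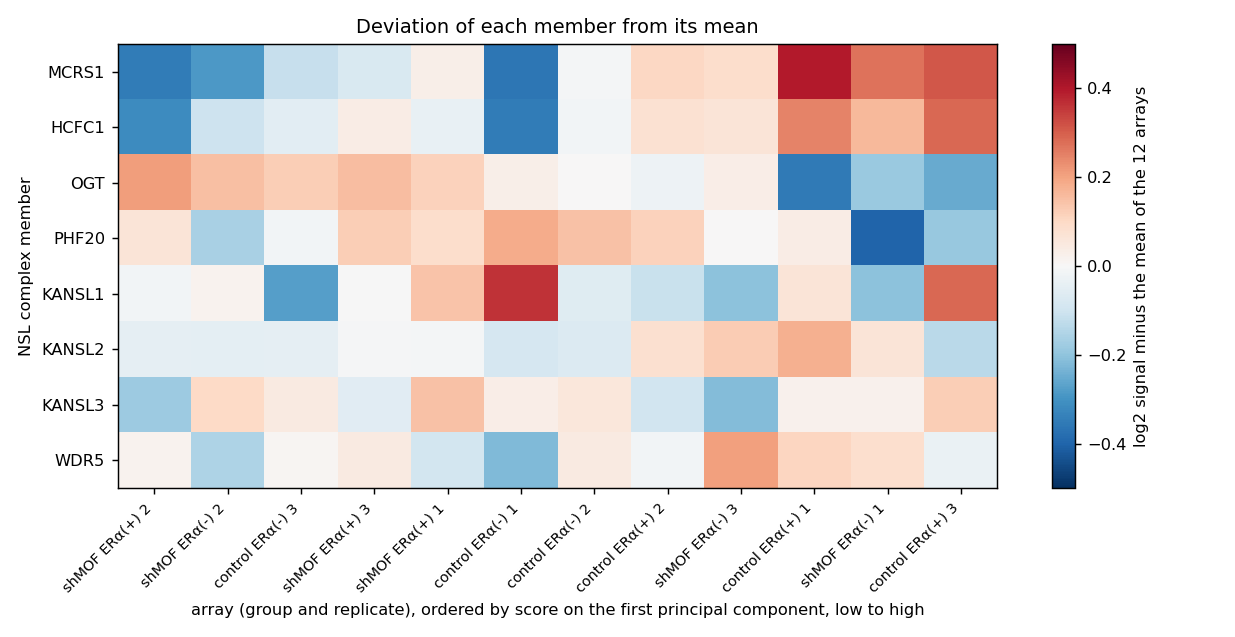
Deviation of each member (rows) from its own mean over 12 arrays, in log2 units by colour, with arrays (columns) ordered by their score on the first principal component. MCRS1 and HCFC1 pass from below to above their means and OGT from above to below along the order. Control ERα(-) replicate 1 lies outside the trend for MCRS1 and HCFC1. KANSL2 also passes from below to above its mean, by smaller amounts, with control ERα(+) replicate 3 (-0.135) outside the trend. KANSL1, KANSL3 and WDR5 show no such passage.

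PHF20, the methyl-lysine reader (chromosome 20, 35772015 to 35950370), had its own pattern. It read 5.98, 6.21 and 6.38 on shMOF ERα(-) arrays, the lowest group, against 6.56, 6.52 and 6.36 on control ERα(-) arrays. These groups overlapped by the third shMOF array alone, and the difference was -0.29 ± 0.13 (SE), or 0.816-fold (95% interval 0.672 to 0.99; limma adjusted p = 0.953). In ERα(+) control arrays read 6.41, 6.49 and 6.19 and shMOF arrays 6.47, 6.44 and 6.50, a difference of 0.11 ± 0.13. Relative to shMOF ERα(-), all shMOF ERα(+) arrays were higher, at 0.28 ± 0.13 (limma adjusted p = 0.746), where the groups of 9.51% of genes did not overlap. Without shMOF ERα(-) replicate 1 this was 0.17. Between control groups the difference was -0.12 ± 0.13, and the interaction was 0.40 ± 0.18 (limma adjusted p = 0.273). Without shMOF ERα(-) replicate 1 the difference in ERα(-) was -0.19.

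The core subunits KANSL1, KANSL2 and KANSL3 and the shared subunit WDR5 gave no separation by label. KANSL1 (chromosome 17, 46029916 to 46225367) read 8.94, 8.52 and 8.30 on control ERα(-), 8.37, 8.59 and 8.37 on shMOF ERα(-), 8.64, 8.46 and 8.86 on control ERα(+) and 8.72, 8.56 and 8.57 on shMOF ERα(+) arrays. Its spread came largely from control ERα(-), which held both the highest and the lowest array. KANSL2 (chromosome 12, 48653211 to 48682238) read 7.62, 7.63 and 7.66, then 7.76, 7.65 and 7.83, then 7.88, 7.78 and 7.57, then 7.69, 7.65 and 7.69 in the same order of groups. Its 12 arrays spanned 0.31 log2 units, and 6.8% of the 1000 genes nearest to it in level spanned no more.

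KANSL3 (chromosome 2, 96580494 to 96638312) read 6.92, 6.95 and 6.93 on control ERα(-), 6.91, 6.99 and 6.67 on shMOF ERα(-), 6.91, 6.79 and 7.01 on control ERα(+) and 7.03, 6.71 and 6.83 on shMOF ERα(+) arrays. WDR5 (chromosome 9, 134135199 to 134159968) read 6.58, 6.84 and 6.81, then 6.88, 6.64 and 7.001, then 6.91, 6.79 and 6.77, then 6.71, 6.82 and 6.84 in the same order of groups. For these 4 genes the groups overlapped in every comparison of 2 groups.

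Averaging over both conditions gives the tightest bounds on an effect of the shMOF label. It was -0.09 for KANSL1 (95% interval -0.33 to 0.15), 0.03 for KANSL2 (-0.14 to 0.20), -0.06 for KANSL3 (-0.25 to 0.13) and 0.03 for WDR5 (-0.16 to 0.22). Without control ERα(-) replicate 1 that of KANSL1 was -0.0017. For KANSL2 this leaves room for a change between 0.905-fold and 1.15-fold. The ERα label averaged over control and shMOF arrays gave 0.12 (-0.12 to 0.37), 0.02 (-0.15 to 0.19), -0.01 (-0.20 to 0.18) and 0.01 (-0.18 to 0.20) for the 4 genes. With 3 arrays a group, differences inside these intervals are not excluded. The intervals do not show how large a difference would have been called.

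Genes that work with the members were read as lists, and limma called 0 of their measured members in any comparison. The MSL side of MOF had all 4 of its genes, KAT8, MSL1, MSL2 and MSL3, with a median log2 difference of 0.04 for shMOF in ERα(-) and 0.01 in ERα(+), against -0.003 and -0.04 over all genes. MSL2, a ubiquitin ligase of that complex, was at -0.26 ± 0.115 (SE) in ERα(-), and at -0.16 without control ERα(-) replicate 1. Of the paralogues KANSL1L, PHF20L1, HCFC2 and WDR5B, 1 of 4 was above 0 for shMOF in ERα(-) (median -0.13), against 49.4% of all genes. For shMOF in ERα(+), 4 of 4 were above 0, with a median of 0.35, where 43.8% of all genes were above 0. HCFC2 was at 0.51 ± 0.22 there, and at 0.30 without control ERα(+) replicate 3. PHF20L1 had an interaction of 0.88 ± 0.31.

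Of the O-GlcNAc genes and OGT partners, 10 of 13 were measured. For shMOF, 7 of 10 were above 0 in ERα(+) (median 0.19), against 43.8% of genes, and 3 of 10 in ERα(-) (median -0.10), against 49.4%. The methylcytosine oxidases TET1 and TET2, which bind OGT, had interactions of 1.07 ± 0.27 (SE) and 1.06 ± 0.29. TET1 read 7.02, 6.91 and 6.67 on control ERα(+) and 7.43, 7.62 and 7.21 on shMOF ERα(+) arrays, which did not overlap. In ERα(-) it read 7.91, 7.29 and 7.37 on control and 6.80, 7.35 and 6.88 on shMOF arrays. OGA, the enzyme that removes what OGT adds, had an interaction of 0.46 ± 0.21, of the same sign as that of OGT. The limma adjusted p-values of these 3 interactions were 0.213, 0.219 and 0.273. Without shMOF ERα(-) replicate 2 those of TET1 and TET2 were 0.0313 and 0.0327. That fit called 570 of 14884 genes in the interaction, so passing in it is not particular to these genes.

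Of WDR5's partners in the histone H3 methyltransferase complexes, 12 of 15 were measured, and medians were 0.04 for shMOF in ERα(-) and -0.07 in ERα(+). The methyltransferase KMT2C had an interaction of 0.83 ± 0.31 (SE) and the demethylase KDM6A of 0.61 ± 0.25. Their limma adjusted p-values were 0.227 and 0.245. Without shMOF ERα(-) replicate 2 they were 0.0426 and 0.0444, in the fit that called 570 of 14884 genes in the interaction. Of the DNA-binding partners of HCFC1, 6 of 9 were measured, with medians of -0.04 in ERα(-) and -0.11 in ERα(+). For shMOF in ERα(+), 3 of the 6 were above 0 and 3 below, and 2 were below an unadjusted p of 0.05, against 18.7% of genes. These were CREB3 at -0.43 ± 0.16 and E2F1 at -0.34 ± 0.13, while ZNF143 was at 0.21, YY1 at 0.06, SP1 at 0.02 and THAP11 at -0.25. Of the other histone acetyltransferases, 8 of 9 were measured (medians -0.09 and 0.06). KAT2B had an interaction of 0.58 ± 0.22, KAT2A was at 0.39 ± 0.16 for ERα in control arrays and HAT1 at 0.36 ± 0.16 for shMOF in ERα(+). HAT1 was 0.23 without control ERα(+) replicate 3.

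These values were smaller or turned once the first component entered the fit as a covariate, which also takes out part of the comparison. PHF20L1, HCFC2 and HAT1 then had the opposite sign, at -0.01, -0.14 and -0.05. The interactions were then 0.04 for KMT2C, 0.17 for KDM6A, 0.03 for OGA, 0.25 for TET2, 0.58 for TET1 and 0.43 for KAT2B. CREB3 was then at -0.02, E2F1 at -0.09 and KRT18 at -0.19 for shMOF in ERα(+), and KAT2A at 0.15 for ERα in control arrays.

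The genes most like each member over the 12 arrays were taken among 7442 genes at or above the median level, by Pearson's r, as a description. GMPPA (r = 0.98) and TXLNA (0.97) were nearest to MCRS1, PFAS (0.98) and GRWD1 (0.97) to HCFC1, and WDFY1 (0.95) and POT1 (0.95) to OGT. Nearest to WDR5 were GSTO1 (0.90) and ELP3 (0.86), to KANSL3 ZNF674-AS1 (0.87) and LIX1L (0.84), and to PHF20 ZNF585A (0.84) and ARFGEF3 (0.82). PATL1 and TRIM72 (both 0.83) were nearest to KANSL1, and PTGR3 (0.83) and PTGR1 (0.82) to KANSL2. With so many candidates the nearest gene is always close.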

How the data were processed

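Expression was measured on 12 arrays of Ishikawa RNA, 3 in each labelled group. The authors deposited log2 values, summarised by RMA in Expression Console 1.4.1 according to the submitters' processing notes. RMA equalises the distributions of arrays and can shrink differences of dim transcripts. The build behind the probe sets is not stated there. Of 53617 probe sets per array, 16098 carry 1 gene symbol and 37519 are unnamed here. The probe set with the highest mean stood for each of 14884 genes, with no filter. One limma model (version 3.58.1, R 4.3.3) of 4 group means was fitted to all genes, with two-sided tests and 8 residual plus 5.60 prior degrees of freedom. Benjamini-Hochberg adjustment ran over all genes within each of 7 comparisons and an F test, and adjusted p below 0.05 was a call. The number of arrays limits precision: the median half-width of a 95% interval was 0.33 between 2 groups, 0.46 for the interaction and 0.23 for averaged comparisons. The script was checked on simulated arrays with noise independent between genes. Of 1.5-fold changes it called 29% to 37% between 2 groups and 0% in the interaction. Of 2-fold changes it called 90% to 93% and 43%. Having 0 calls therefore does not exclude changes of such sizes.

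The members and gene lists were chosen with earlier results of these data known. The text names the members, KAT8, ESR1, up to 3 genes per list with the smallest p (only those below 0.05 unadjusted, each in its smallest-p comparison), and the 2 genes most like each member. Other measured genes of some lists are named beside these whatever their p, and some genes are also given in a further comparison. Lists covered the MSL complex with MOF, NSL paralogues, WDR5 partners, O-GlcNAc genes, HCFC1 partners, other acetyltransferases and epithelial, stromal, immune and endothelial markers. Promoter windows are RefSeq's on GRCh38.p14. Alternatives changed the probe-set rule, dim-gene filter, normalization, variance prior, array weights, the arrays fitted, blocks for replicate number and code letter, and left out each array. Both that use the first principal component were chosen after seeing the data. Each array carries a code letter from A to H. Control ERα(+) and shMOF ERα(+) arrays share no letter, and no letter is shared between ERα(-) and ERα(+) arrays. The block therefore cannot part letter from label in those comparisons. Within ERα(-), control and shMOF arrays share only the letter B.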

Additional observations from a re-analysis of the deposited data

How the results depend on the processing

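Of 1131 alternative values of named genes, 31 turned sign and 17 passed the threshold. The shMOF differences in ERα(+), the ERα differences in control arrays and the interactions of MCRS1, HCFC1 and OGT kept their sign under every alternative run. Calls over all genes, 0 in each comparison, depended on array quality weights, which ran from 0.359 to 8.86 with 3 arrays a group. They gave 645 and 1629 calls for shMOF in ERα(-) and ERα(+), 217 and 1918 for ERα in control and shMOF arrays, 3258 for the interaction, 1 and 12 for the averaged shMOF and ERα comparisons and 3322 for the 4 groups. Under them the named differences that passed included MCRS1 (-0.45) and OGT (0.46) for shMOF in ERα(+) and the interactions of MCRS1 (-0.65), HCFC1 (-0.42) and OGT (0.50). Fitting only the 2 groups gave 9 calls for ERα in control arrays, and the code letter as a random block 5 for the interaction. Leaving out both ends of the first principal component gave 1 call for shMOF in ERα(+) and 1 for the interaction. The cause was not tested.

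With the replicate number as a block, 2 genes were called in the interaction and 0 in the other comparisons, and no named difference passed. The numbers did not pair the arrays as a whole: 5 of 18 same-numbered pairs deviated together at r above 0.1 (range -0.18 to 0.45), and 4 of 12 arrays correlated best with their own number. Replicate 2 of shMOF ERα(-) did deviate with replicate 2 of control ERα(+) (0.24) and of shMOF ERα(+) (0.45), and the latter arrays with each other (0.38). Replicate 2 of control ERα(-) was at -0.18, 0.07 and -0.04 with these arrays.

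Leaving out 1 array gave 0 to 5 calls for shMOF in ERα(-), 0 to 30 in ERα(+), 0 to 4 for ERα in control arrays, 0 to 11 in shMOF arrays, 0 to 570 for the interaction and 0 to 18 for the 4 groups, and 0 in the averaged comparisons. The highest of each range came without shMOF ERα(-) replicate 2. Ranges that crossed 0 were those of differences near 0. For the averaged shMOF difference they were -0.018 to 0.060 for KANSL2 and -0.0069 to 0.084 for WDR5. For the averaged ERα difference they were -0.014 to 0.064 for KANSL2, -0.059 to 0.025 for KANSL3 and -0.037 to 0.053 for WDR5. OGT for shMOF in ERα(-) ran from -0.127 to 0.041, while KAT8 lay between -0.061 and 0.034 there and, for ERα(+), between -0.081 and 0.1003.

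With both ends of the first component left out, the averaged shMOF difference was -0.012 for KANSL2 and 0.0016 for KANSL3. With that component as a covariate, PHF20 for shMOF in ERα(+) was -0.017, MCRS1 for ERα in shMOF arrays 0.062, OGT for shMOF in ERα(-) 0.020, the PHF20L1 interaction -0.013 in place of 0.88, and HCFC2 and HAT1 for shMOF in ERα(+) -0.137 and -0.055 in place of 0.51 and 0.36. With arrays shifted to 1 median, the averaged ERα difference of KANSL3 was 0.0053 and KAT8 for shMOF in ERα(-) 0.0042. Array quality weights gave 0.068 for KANSL3 and -0.039 for WDR5 in the averaged ERα comparison, and quantile normalization -0.0012 for WDR5.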
